A study of Mus musculus with 4 samples.

Results

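The regions described here were the strong sites that 2 thymocyte peak lists had in common. They were streptavidin ChIP peaks of PLZF-transgenic thymocytes with a deposited score of 200 or more that overlapped a peak of the NKT library by at least 1 bp, where the highest overlapping NKT score was the lower of both. With chromosome Y and the mitochondrial genome left out, 1055 of 5191 PLZF-transgenic peaks met this rule, 20.3% of the list (5198 peaks with the excluded sequences). Of the 1316 peaks at 200 or more, 1114 overlapped an NKT peak, 59 of these had the higher score in the NKT library, and 202 had no NKT partner. The sites were thus chosen by measured values, namely presence in both lists, the score and the direction of the score difference, which are given below as a description only. Position relative to genes, the identity of neighbouring genes and sequence at gene starts were not used by the rule.

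The study mapped binding of PLZF in thymocytes by pulling down chromatin on streptavidin beads. All mice were on a C57BL/6 background and carried a PLZF transgene together with a transgene for BirA, a bacterial ligase that attaches biotin to a target protein. The library called PLZF-transgenic came from such mice (labelled PLZF tg/BirA tg), and the library called NKT came from mice that carried a Valpha14 T cell receptor transgene in addition (labelled PLZF tg/BirA tg/Valpha14 tg). Each had 1 ChIP library, and the 2 matching input libraries were not analysed here. Both were labelled thymocytes. A peak list holds no expression values, so the cell type could not be checked against its markers, and no label says whether cells were sorted. The sources used here do not give the promoters that drive the transgenes or the ages of the mice. Without a pull-down from mice that lack the PLZF transgene, a site is a place of streptavidin enrichment and need not be a PLZF site. Sequencing depth is unknown, and neither list has a replicate.

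PLZF, encoded by Zbtb16, is a transcription factor with a BTB domain, through which it pairs with itself and recruits co-repressors, and a set of zinc fingers that bind DNA. Natural killer T cells switch it on during thymic development, and it directs them to an innate-like effector state. Most other thymocytes do not make it, so a transgene places it in cells that would normally lack it.

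A set of 4 sequences is shown as examples of gene starts under strong common sites. They were picked after the values were seen, from the 10 highest sites over a start window, as the protein-coding genes whose upstream stretch lay within the site, and some noncoding starts had higher scores. They are the 250 bases before an annotated start of Nsg2, a neuronal vesicle protein gene, Alyref2, an mRNA export factor gene, Mfap1b, a splicing factor gene, and Ptpn22, which encodes a phosphatase that restrains T cell receptor signalling. They are written 5′ to 3′ on the strand of the gene, come from RefSeq (GRCm38.p6), and have matches to any of the 9 searched motifs in capitals.
Nsg2, chr11:32000169-32000418, plus strand: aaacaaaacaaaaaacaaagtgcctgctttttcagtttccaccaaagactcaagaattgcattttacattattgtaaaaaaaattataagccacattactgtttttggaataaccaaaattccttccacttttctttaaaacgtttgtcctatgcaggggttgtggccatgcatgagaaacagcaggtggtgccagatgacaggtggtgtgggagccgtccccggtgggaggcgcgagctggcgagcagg
Alyref2, chr1:171503228-171503477, plus strand: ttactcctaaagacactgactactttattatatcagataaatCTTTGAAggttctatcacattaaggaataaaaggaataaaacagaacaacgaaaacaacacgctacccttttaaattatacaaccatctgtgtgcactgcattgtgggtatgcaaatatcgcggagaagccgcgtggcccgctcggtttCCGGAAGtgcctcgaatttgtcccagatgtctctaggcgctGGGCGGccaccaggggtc
Mfap1b, chr2:121474024-121474273, minus strand: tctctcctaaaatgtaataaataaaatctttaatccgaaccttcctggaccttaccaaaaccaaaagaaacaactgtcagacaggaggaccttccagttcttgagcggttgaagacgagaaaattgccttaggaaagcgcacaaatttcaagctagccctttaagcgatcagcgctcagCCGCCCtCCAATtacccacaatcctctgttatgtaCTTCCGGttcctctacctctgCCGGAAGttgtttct
Ptpn22, chr3:103859545-103859794, plus strand: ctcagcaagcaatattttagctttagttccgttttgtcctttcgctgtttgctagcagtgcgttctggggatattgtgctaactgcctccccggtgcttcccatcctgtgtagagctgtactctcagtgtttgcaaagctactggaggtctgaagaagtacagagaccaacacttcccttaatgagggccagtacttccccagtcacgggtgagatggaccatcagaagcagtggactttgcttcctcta
The Mfap1b stretch held 4 matches, 2 of them to the ETS core CCGGAAG, and the Alyref2 stretch held 3, to the ETS core, the GC box GGGCGG and the TCF core CTTTGAA. Neither the Nsg2 nor the Ptpn22 stretch shown held any of the searched words. Each of these 2 genes had a second annotated start under the same site. The 250 bases before that start held 1 match to CCAAT at Nsg2 and 2 to the RUNX word TGTGGT at Ptpn22. Throughout, paired scores are given with the PLZF-transgenic one first and the NKT one second. The site over the Nsg2 start had scores of 1184 and 849.0, with its midpoint 264 bp before the start whose sequence is shown. At Alyref2 the scores were 867.5 and 412.9, at Mfap1b 753.6 and 442.6, and at Ptpn22 673.7 and 109.5.

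The paired scores show how the chosen sites ranged. Their PLZF-transgenic scores ran from 200 to 3133, with a median of 333.7 and quartiles of 253.6 and 488.3. The highest NKT score at the same places ran from 50.09 to 3100, with a median of 156.9 and quartiles of 103.5 and 250.5. Most were of modest score: 436 lay below 300, 255 reached 500 and 40 reached 1000. Over the 1055 sites, the NKT score was a median of 46.2% of the PLZF-transgenic score (quartiles 32.7 and 61.9%, range 10.2 to 99.9%), where the rule allowed no value of 100% or more. Because depth acts on such scores and is unknown, these percentages describe the files and show no change in binding. The rank correlation of both scores across the sites was 0.67, over points that share both libraries and a threshold.

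**Figure D1:**
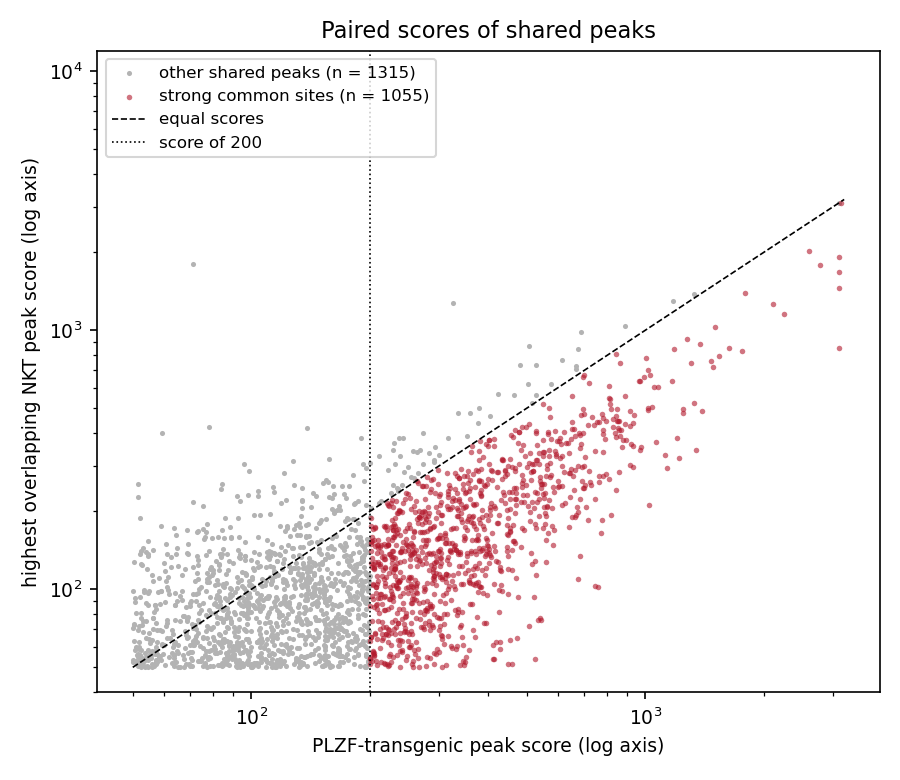
Score of each shared PLZF-transgenic peak (horizontal log axis) against the highest score of an overlapping NKT peak (vertical log axis). Red points are the 1055 strong common sites, grey points the other shared peaks; by the rule the red points lie right of the dotted line at 200 and below the dashed line of equal scores, and they spread down to NKT scores of 50.09.

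Toward the low end of the pairs stood sites inside Ppm1h (458.5 and 51.29), inside the noncoding gene B930018H19Rik (447.5 and 51.53), 0.975 kb from Gtf3c6 (412.0 and 53.75) and inside Map3k20 (409.6 and 54.01). These NKT scores lay just above the lowest value in that list. At the other end, a site inside Gfpt1 scored 263.4 and 263.1, the site 2.18 kb from Sag 3133 and 3100, a site inside Notch3, a Notch receptor gene, 379.8 and 372.5, one near Pias4 364.2 and 357.2, and one inside Gm34096 227.6 and 221.8. The Gm34096 and B930018H19Rik sites lay within 10 kb of each other on chromosome 8, so neighbouring sites stood near opposite ends of the paired values.

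Next to the threshold, the lowest sites included were those at Klrb1c (200 and 54.48), Chd7 (200.3 and 51.60), Pfkfb2 (200.3 and 86.56), Ripor2 (200.5 and 53.81) and Atp6v0a2 (200.7 and 63.25). The highest shared peaks left out below it lay at Kcnip1 (199.9 and 190.6), Thg1l (199.9 and 112.2), Akap13 (199.4 and 74.99), Dusp10 (199.3 and 112.8) and Lmnb1 (199.1 and 111.7). The values on both sides of the threshold lay within 2 units of each other.

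Peak shape was compared next. The median width was 669 bp for PLZF-transgenic peaks (quartiles 572 and 804 bp) and 388 bp for their NKT partners (286 and 504 bp). At 1019 of 1055 sites, 96.6%, the NKT peak was the narrower. Width and score moved together across the sites, with a rank correlation of 0.69, so the wider peaks cannot be told apart from the higher scores that chose them. The NKT peak lay wholly within the PLZF-transgenic peak at 857 sites, 81.2%. Midpoints of the paired peaks were a median of 62 bp apart (quartiles 27 and 112 bp), 730 pairs were within 100 bp, and no pair was over 500 bp apart. At 920 sites there was 1 NKT peak, at 123 there were 2, at 9 there were 3 and at 3 there were 4. The last group comprised sites at Sirt4 (1021 and 211.4), Cnih3 (856.0 and 284.6) and Gm525 (583.6 and 248.8). Of all 4239 NKT peaks outside the excluded sequences, 1205 lay under the 1055 sites. Of the 1060 NKT peaks with a score of 125.4 or more, 707 lay under the sites. The rule used overlap and scores, so both counts are a description only.

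**Figure D2:**
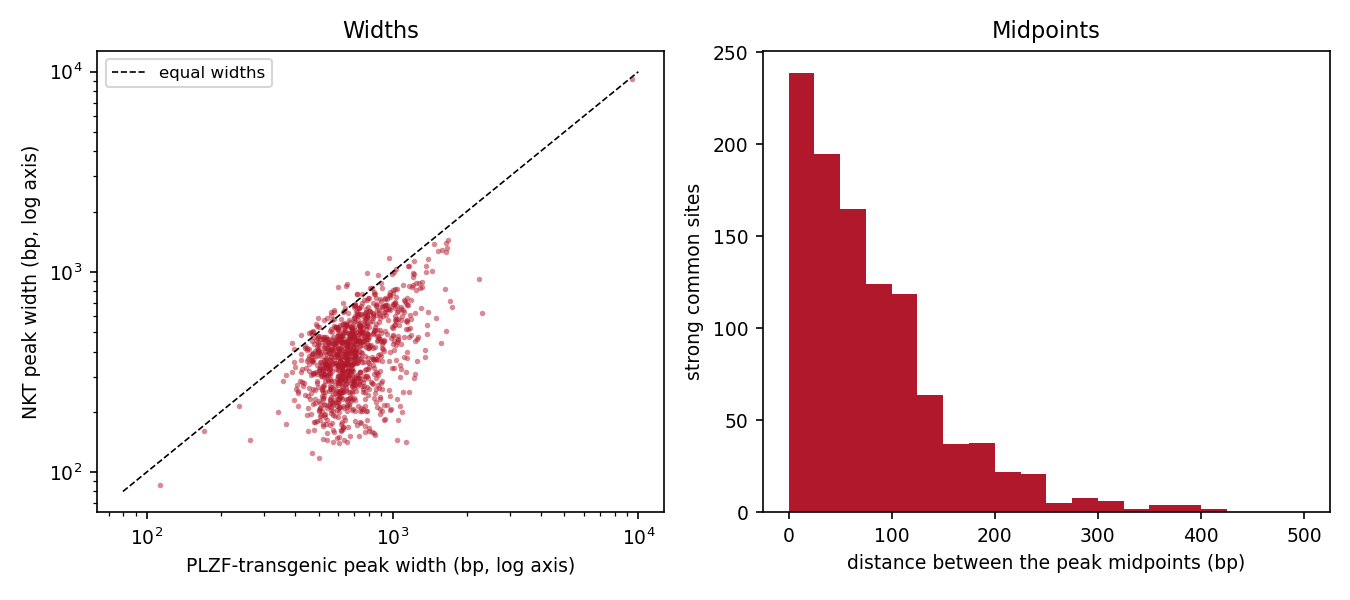
Left, width of the PLZF-transgenic peak against that of the highest overlapping NKT peak in bp, both on log axes, for 1055 sites, with equal widths dashed; 1019 points lie on the PLZF-transgenic side. Right, number of sites by distance between both midpoints, in bins of bp, with a median of 62 bp.

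Where the sites lay relative to genes could be compared with the rest of the list, since position was not part of the rule. With genes of all kinds counted, 233 of 1055 sites lay within 1 kb of a gene boundary, 22.1% (exact 95% interval 19.6 to 24.7%), against 26.2% of the other 4136 PLZF-transgenic peaks (24.9 to 27.6%). A further 51.9% lay inside genes (48.9 to 55.0%), against 48.6% (47.1 to 50.1%), and 26% between genes (23.3 to 28.7%), against 25.2% (23.9 to 26.5%). Intervals here cover counting error only, and peaks of 1 library are not replicates, so no test was made of these differences.

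The share of sites close to the start of a gene, as RefSeq windows give it, was below that of other peaks. Windows were at hand for 17273 of 21627 protein-coding genes, with none on chromosome 18, which left 1035 sites. A start site lay within 1 kb of the midpoint for 137 of them, 13.2% (11.2 to 15.5%), and for 18.8% of other peaks (17.6 to 20.1%), intervals that do not overlap. Shared peaks below a score of 200 with the higher score in the PLZF-transgenic list were at 20.1% (17.4 to 23.0%), and shared peaks with the higher NKT score at 17.7% (14.3 to 21.5%). Unshared PLZF-transgenic peaks of 200 or more stood at 13.5% (9.09 to 19.0%), close to the common sites of the same score range. Over 10 kb from any start site were 59.7% of strong common sites (56.6 to 62.7%) and 53.7% of other peaks (52.2 to 55.3%). Unshared peaks of 200 or more were again close to the common sites, at 61.0% (53.9 to 67.8%). The median distance was 14.5 kb for strong common sites, 11.9 kb for other peaks and 15.7 kb for unshared peaks of 200 or more.

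Across the whole PLZF-transgenic list the share near a start was lower in the higher score classes. It was 19.0% in the lowest of 10 classes (15.7 to 22.7%), 19.2% in the fifth, 16.3% in the eighth, 14.2% in the ninth and 10.8% in the highest (8.28 to 13.9%). Among strong common sites it was 16.9% for scores of 200 to 250 (12.4 to 22.3%), 12.0% for 400 to 600 (7.93 to 17.2%) and 11.4% for 600 to 1000 (6.36 to 18.4%). Only 1 of the 40 sites of 1000 or more, the one at Nsg2, had a start within 1 kb, 2.5% (0.0633 to 13.2%). Where a start lay within 1 kb, the midpoint was upstream of it at 90 of 137 sites, 65.7% (57.1 to 73.6%), against 60.5% for other peaks (57.0 to 64.0%).

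**Figure D3:**
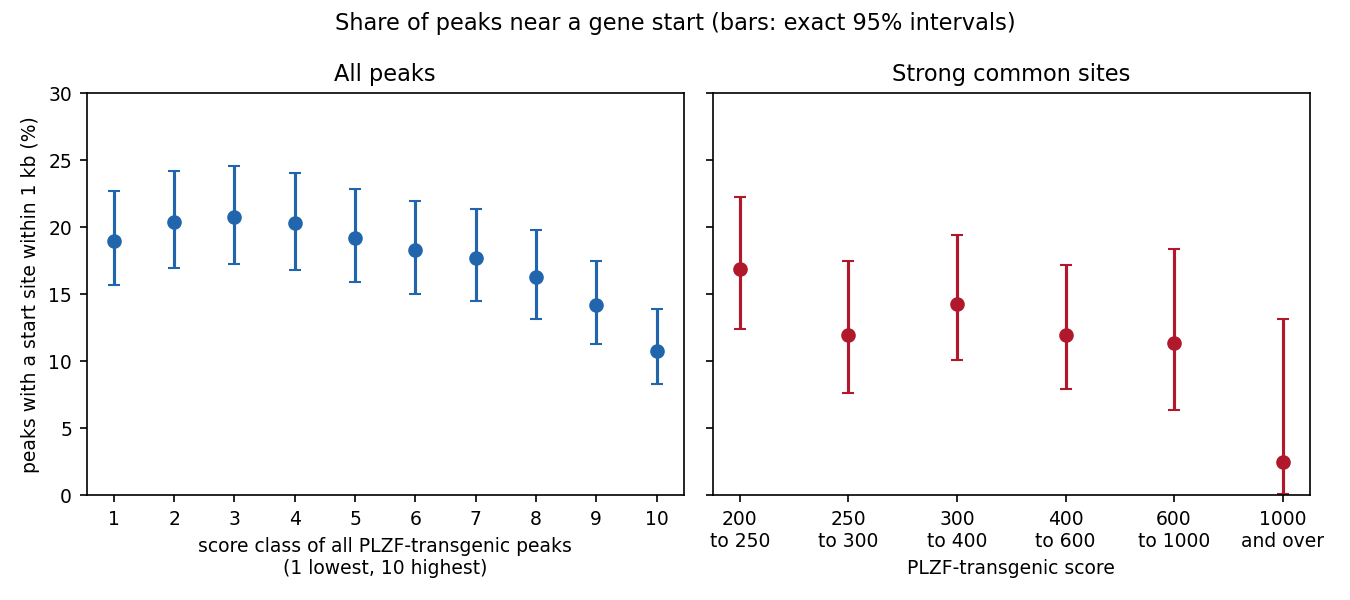
Percent of peaks whose midpoint lies within 1 kb of an annotated start site, with exact 95% intervals. Left, all PLZF-transgenic peaks in 10 score classes, from 19.0% in the lowest to 10.8% in the highest; right, strong common sites by score, from 16.9% at 200 to 250 to 2.5% at 1000 and over.

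Strong common sites overlapped 152 of 32619 start-site windows, 0.466%, and other PLZF-transgenic peaks 616, 1.89%. These counts come from sets of unlike size, 1055 sites and 4136 other peaks. The 2 shares are therefore no comparison per peak. A window ran from 250 bases before a start to 50 after it, and the 152 belonged to 135 genes, so some share sequence. The ETS core CCGGAAG, searched like the other words on both strands, was in 27 of the 152, 17.8% (exact 95% interval 12.0 to 24.8%), in 26.4% of the 614 windows under other peaks only (22.9 to 30.1%) and in 8.92% of all windows. CAGCTG, an E protein word, was in 23.0% (16.6 to 30.5%), against 15.5% and 16.4%, and the NF-Y word CCAAT in 22.4% (16.0 to 29.8%), against 35.8% and 37.6%. Both RUNX words (TGTGGT, 14.5% against 19.5% and 16.6%) and TCF words (CTTTGAA, 4.61% against 4.40% and 5.14%) were at nearly the share of all windows. The remaining words were GGGCGG (38.8, 39.4 and 35.9%), CACGTG (9.87, 8.31 and 7.20%), ATGGCG (11.8, 16.3 and 8.98%) and TGANTCA (3.95, 3.91 and 7.85%), in the same order. The median number of CG pairs was 13 in windows under strong common sites, 17 under other peaks only and 7 in all windows. Median GC content was 53.0, 56.0 and 53.0% in the same order. The part of base composition in the motif shares was not tested. A match to a short word is a description and not a binding site.

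The 10 highest sites over a start window belonged to 5 noncoding and 5 protein-coding genes, and 113 of the 152 windows under strong common sites were of protein-coding genes. Besides the genes shown above, scores were 863.1 and 744.7 at Rptoros, a noncoding gene at the Rptor locus, 808.4 and 267.1 at Gm34999, 788.5 and 380.8 at Gm29952, 772.4 and 165.1 at Gm51814, and 746.0 and 103.1 at Gm19897. Cic, which encodes a transcriptional repressor, had scores of 720.3 and 624.8, with the midpoint 384 bp past the start. In all, 161 sites, 15.3% (exact 95% interval 13.1 to 17.6%), had their midpoint inside a lncRNA gene, 126 of them outside any protein-coding gene. The share of the other 4136 peaks was 12.3% (11.3 to 13.3%), and the intervals overlap.

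The next question was which genes lay beside the sites. Each midpoint was assigned to its closest protein-coding gene, up to a distance of 100 kb. This placed 977 sites at 809 genes, 541 of them inside the gene, and left 78 sites, 7.39%, without one. Of all 21627 protein-coding genes, 3.74% had a strong common site, 13.8% had any PLZF-transgenic peak and 11.8% any NKT peak. A nearest gene need not be the gene a site acts on. Genes with a strong common site had a median domain (the body plus the ground on each side up to the middle of the gap to the next gene, at most 100 kb a side) of 100.4 kb, against 47.9 kb for all genes, and the part of domain length in which genes have a site was not tested.

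Receptor signalling genes of T cells stood at the head of the lists. A strong common site was assigned to 27 of 53, 50.9% (exact 95% interval 36.8 to 64.9%), where 3.74% of all genes had one and the list's median domain was 73.2 kb. Any PLZF-transgenic peak was at 84.9% of the list, against 13.8% of all genes. The highest scores belonged to Cd4 (2245 and 1158), Cd3d, a chain of the CD3 complex (1043 and 504.9), and Pag1, the adaptor that anchors the inhibitory kinase Csk (912.8 and 486.2, 53.7 kb away). Next came Cd8a (847.4 and 445.8), Ptprc, which encodes the phosphatase CD45 (844.5 and 468.7), Ubash3a, a negative regulator of receptor signalling (728.7 and 253.7), Ptpn22 and the small GTPase gene Rhoh (636.9 and 366.3). Csk itself had a site of 477.9 and 404.2. Genes of the receptor complex and of its brakes were thus both present. Sites sat directly at an annotated start of Themis (midpoint 6 bp before it, 270.7 and 139.1) and Cd3g (63 bp past it, 487.7 and 258.2). The same held for Itpkb (164 bp before it, 428.1 and 62.88) and Cd247 (160 bp before it, 249.2 and 55.27). The Cd247 site lay inside the gene, over 1 kb from any gene boundary. At the lowest scores, Cd28, which encodes a costimulatory receptor, had 203.9 and 104.9. Among the 27, Cd4 and Cd2 are also loci whose sequence a transgene may carry. The lists were written with an earlier account of these data known and are no independent evidence.

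Transcription factor genes of the T lineage had a strong common site at 17 of 52, 32.7% (20.3 to 47.1%), with a long median domain of 128 kb. Any PLZF-transgenic peak was at 71.2% of the list, against 13.8% of all genes. Tcf7, which encodes TCF1, led with 1759.9 and 831.4 at a site 31.0 kb away, inside the noncoding gene Gm30217. Sites inside the gene followed for Ets1 (862.2 and 391.2), Ikzf1, which encodes Ikaros (843.8 and 240.9), Prdm1 (688.5 and 469.4), the ETS factor gene Fli1 (603.0 and 250.2), Zbtb16 itself (572.3 and 462.8) and Rora (548.6 and 338.4). The site of Lef1, the sister gene of Tcf7, was weaker and distant (228.6 and 103.7, 96.1 kb away). Of the leading genes named before Lef1, only Tcf7 had its highest site outside the gene.

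Migration and adhesion genes had a site at 13 of 39, 33.3% (19.1 to 50.2%), and any PLZF-transgenic peak at 51.3%. Ccr9, which encodes a receptor for the chemokine CCL25, had 977.0 and 353.0 (10.4 kb away). Selplg, whose product binds selectins, had 854.4 and 445.3, and Cd69, whose product holds cells in the thymus, 782.8 and 274.2 (9.19 kb away). Cd47 had 429.7 and 103.8 at 11.3 kb, Thy1 426.9 and 58.95 at 30.6 kb, Gpr132 365.2 and 119.4, and Cd44 352.5 and 134.9.

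Survival and TNF signalling genes had a site at 9 of 45, 20% (9.58 to 34.6%). In the lead were Tnfaip3, an inhibitor of NF-κB signalling (772.4 and 165.1, 47.2 kb away), and the adaptor genes Traf2 (762.3 and 259.2) and Traf1 (759.2 and 102.0). The receptor gene Tnfrsf1a (528.8 and 399.8), the NF-κB inhibitor gene Nfkbia (372.5 and 288.9, 24.3 kb away), the death receptor gene Fas (295.7 and 78.17), and the survival genes Mcl1 (290.3 and 51.41, 5.61 kb away) and Pim1 (232.4 and 104.2) came after them. Kinase and cytokine signalling genes had 11 of 53, 20.8% (10.8 to 34.1%), and any PLZF-transgenic peak was at 64.2% of that list. The 11 include Pdk1, which encodes a pyruvate dehydrogenase kinase, a metabolic enzyme rather than a kinase of receptor signalling. Highest were Rptor, an mTOR partner gene (863.1 and 744.7), Pdk1 (702.0 and 252.3, 6.24 kb away), Socs3, an inhibitor of STAT3 signalling (653.5 and 416.9, 13.5 kb away), and Map4k4 (652.3 and 190.1). Next were Nf1 (414.6 and 140.5), Map3k8 (395.8 and 95.44, 36.1 kb away), Stat5b (376.4 and 98.05) and Pik3r5 (376.3 and 162.7). The site given to Rptor is the one over the Rptoros start, and that given to Tnfaip3 is the one over the Gm51814 start.

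Cytokine, chemokine and effector genes had any PLZF-transgenic peak at 51.0%. A strong common site was at 7 of 49, 14.3% (5.94 to 27.2%), and all but 2 of the 7 were receptor chains. The number of receptor chains among the 49 is not given, so this split is a description only. The receptors were Il6st, which encodes gp130 (1244 and 479.6, 39.3 kb away), Il2ra (511.8 and 138.5, 6.85 kb away), Il4ra (412.7 and 359.1), Ifngr1 (328.0 and 100.6, 93.6 kb away) and Ifngr2 (304.9 and 110.0, 13.2 kb away). The others were Tnfsf11, the gene of RANKL (694.6 and 247.0, 48.7 kb away), and Klrb1c, which encodes the marker NK1.1, at the threshold (8.68 kb away). Il4, Il13, Il17a and Ifng, the classic effector cytokine genes of natural killer T cells, had no strong common site assigned. These 4 were picked out after the values were seen. Only 3.74% of all protein-coding genes had such a site, so its absence at 4 genes is no result about them.

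The other lists lay nearer the background of 3.74%. DNA repair and recombination genes had 4 of 35, 11.4% (3.20 to 26.7%), namely Xrcc6 (2785 and 1793), the end-joining ligase gene Lig4 (698.7 and 246.8), Rag1 (475.6 and 93.05) and Dntt, which encodes the enzyme TdT (317.5 and 125.8). PLZF partners, co-repressors and chromatin genes had 4 of 44, 9.09% (2.53 to 21.7%), namely Smarca4 (361.7 and 112.8), Hdac7 (242.8 and 88.76), Hdac4 (229.0 and 170.0) and Arid1a (219.8 and 67.48). Ribosomal protein genes had 4 of 50, 8% (2.22 to 19.2%), namely Rpl3 (440.9 and 215.3), Rps14 (249.9 and 233.4), Rpl14 (233.1 and 103.2) and Rpl10 (222.3 and 66.89). Cell cycle genes had 3 of 38, 7.89% (1.66 to 21.4%), namely Ccnd3, the cyclin D3 gene (1216 and 321.3), E2f3 (529.8 and 235.1) and Cdkn2d (225.8 and 67.85). The intervals of these 4 lists include 3.74%, so their counts are no result about the lists. Any PLZF-transgenic peak was at 37.1, 38.6, 38.0 and 34.2% of them, in the order given, against 13.8% of all genes.

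Marker genes of other cell types were examined in the same way. Sites were assigned to 0 of 20 B cell genes (which allows up to 16.8%), 0 of 24 thymic stroma genes (up to 14.2%) and 0 of 28 neuronal genes (up to 12.3%). Of 26 myeloid and dendritic genes 1 had a site, 3.85% (0.0973 to 19.6%), which was Itgam, the integrin gene of CD11b, with 223.2 and 137.4 at 3.79 kb. All 4 intervals include the 3.74% of all genes.

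**Figure D4:**
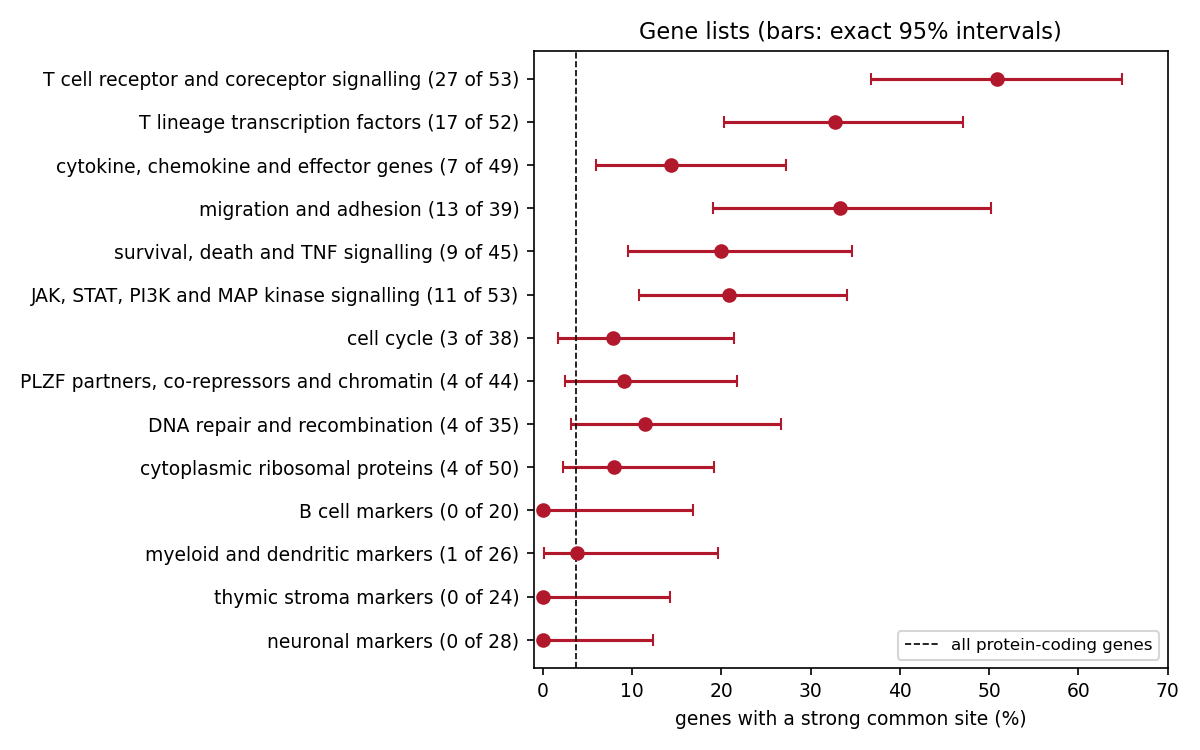
Percent of the genes in each list that have a strong common site as nearest-gene assignment, with exact 95% intervals; counts stand beside each name and the dashed line is the 3.74% of all protein-coding genes. T cell receptor signalling genes are at 50.9%, migration genes at 33.3%, T lineage factors at 32.7%, and the 4 lists of other cell types at 0 to 3.85%.

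Several sites at 1 gene were the exception. A single site was assigned to 681 of the 809 genes, 2 to 102 genes, 3 to 16, 4 to 6 and 5 to 4. The genes with 5 were Mdm1, Ppm1h, Rhoh and Tex14, and those with 4 were Ccnd3, Ets1, Jakmip1, Ptprc, Rasgrp1 and Smndc1. Rhoh has a body of 36.0 kb. Along the chromosome its sites had PLZF-transgenic scores of 247.4, 236.4, 552.3, 636.9 and 439.8, with NKT scores of 149.7, 107.7, 208.4, 366.3 and 287.2. The one of 236.4 had its midpoint 89 bp past an annotated start that lies inside the gene span. The highest lay 4.30 kb beyond the higher-coordinate end of the gene. Ptprc had sites of 613.9, 844.5 and 236.1 within the gene and of 764.4 at 16.2 kb, and the weakest of these was the one at its start (4 bp before it, 74.35 in NKT).

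At Ets1, a site of 651.8 (444.3 in NKT) lay 44.0 kb outside the gene, and those of 862.2, 337.6 and 391.3 (391.2, 223.2 and 249.8) lay close together inside it. All 4 sites of Ccnd3 were inside the gene, at 370.4, 1216, 536.6 and 340.8 (140.4, 321.3, 192.4 and 214.0). Rasgrp1, which encodes the activator of Ras downstream of the T cell receptor, had none within the gene: its sites of 224.7, 581.0, 453.4 and 598.6 (137.0, 205.6, 167.1 and 373.8) lay 69.6 to 96.0 kb away, near the noncoding genes Gm13982 and Gm32137. Tex14, a germ cell gene by its known role, held sites of 574.5, 827.7, 511.6, 459.4 and 400.7 inside its body (308.6, 454.6, 263.7, 238.4 and 126.2). Each of these Tex14 sites also lay within 1 kb of a boundary of some annotated gene, with genes of all kinds counted. The order of the sites by score differed between the lists at Ccnd3, where the weakest PLZF-transgenic site had the second NKT score, and was the same at Tex14.

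**Figure D5:**
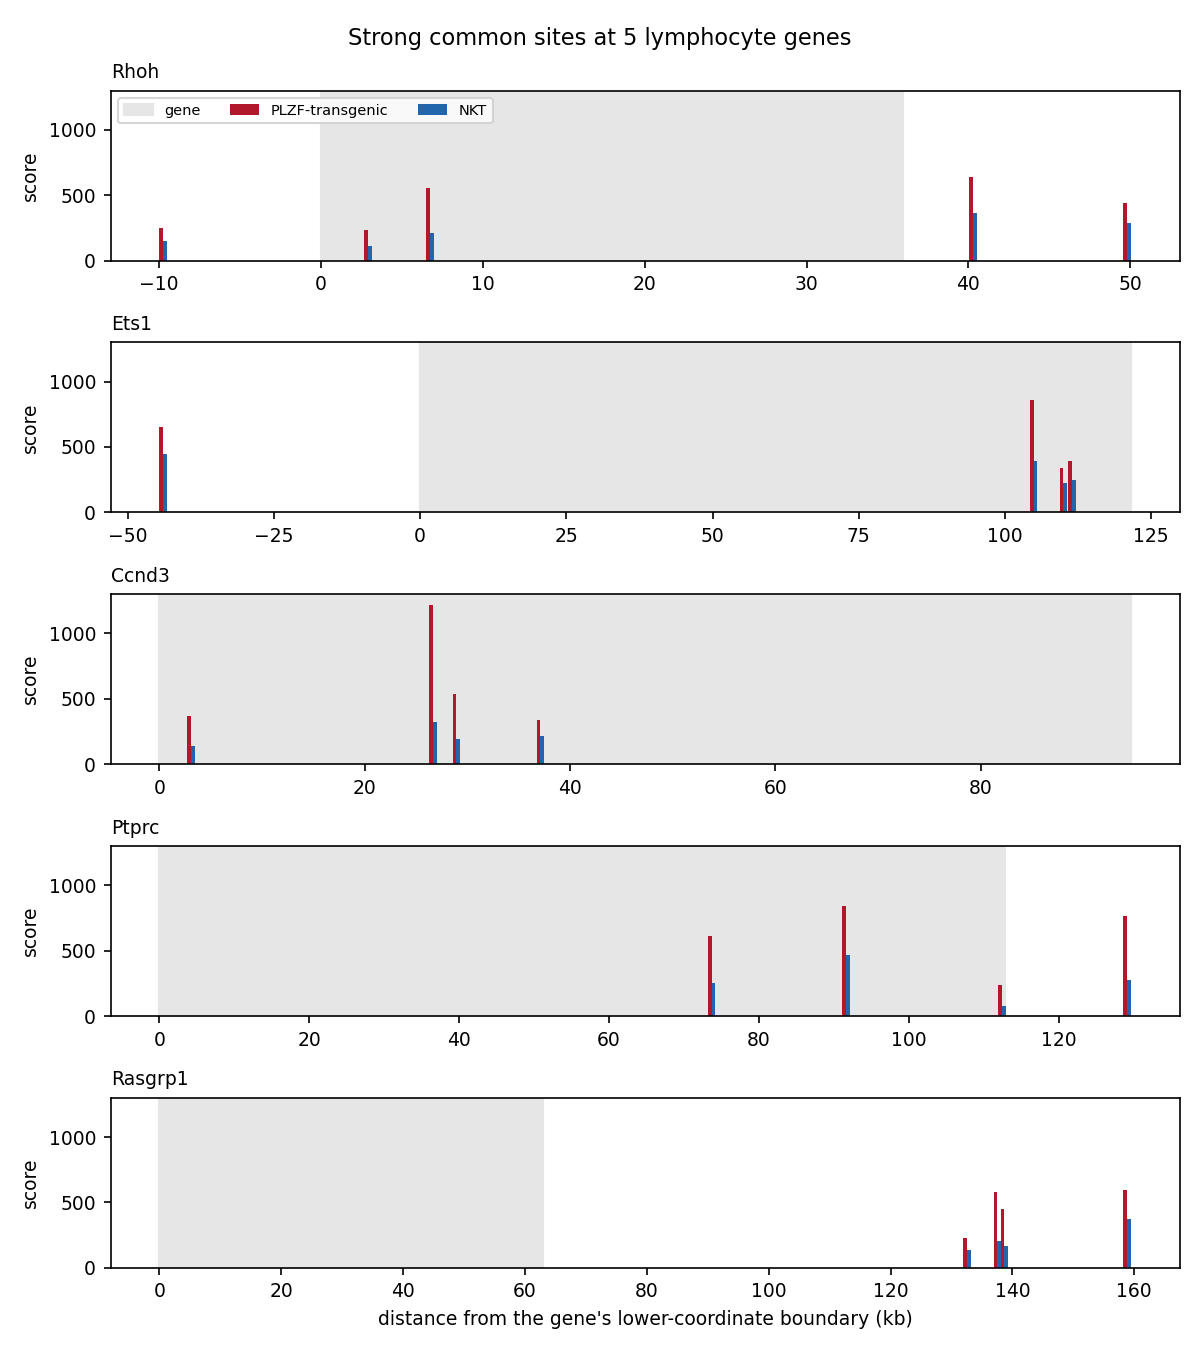
Scores of the strong common sites at Rhoh, Ets1, Ccnd3, Ptprc and Rasgrp1 by distance in kb from the boundary of the gene with the lower coordinate; grey marks the gene, red bars the PLZF-transgenic and blue bars the highest NKT score. The 4 Ccnd3 sites lie inside the gene and the 4 Rasgrp1 sites outside it.

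Sites were also counted by their spacing, whatever gene they were given to. Another strong common site lay within 10 kb for 175 sites, 16.6%, and within 100 kb for 439, 41.6%. With gaps of up to 50 kb between midpoints joined, 14 groups of 4 or more held 63 sites, and 716 sites stood alone. The spacing of other peaks is not given beside these counts, so they do not show that strong common sites cluster more. The largest group, 7 sites over 106 kb on chromosome 5 (65850742 to 65956463), ran from Rhoh to Chrna9. One of 6 sites over 39.2 kb on chromosome 11 (87720779 to 87759988) ran from Rnf43 through Supt4a to Tspoap1. It surrounded Mir142, the miRNA gene of blood cells. At lower coordinates lay a site of 1251 and 494.7 (chr11:87750436-87752062) and a second of 266.5 and 190.1 whose midpoint was 2.02 kb from the hairpin. At higher coordinates than the hairpin lay a site of 382.9 and 102.2 inside Tspoap1. The mature products of this hairpin, from RefSeq, are shown with the seed (bases 2 to 8) in capitals, as the hairpin lies within the group.
mmu-miR-142a-5p: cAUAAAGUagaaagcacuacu
mmu-miR-142a-3p: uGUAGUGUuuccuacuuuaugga
Of 1005 hairpins in the table, 7 had a strong common site within 5 kb. Besides Mir142 these were Mir142b on the opposite strand of the same place, Mir5122, Mir3968, Mir7091, Mir8120 and Mir6959. No count of hairpins near other peaks is given, so the 7 are a description only. A group of 4 on chromosome 6 (71337582 to 71396738) spanned the CD8 genes, with 530.0 at Cd8b1, 847.4 and 209.9 at Cd8a and 1137 at Rmnd5a (362.0, 445.8, 155.5 and 294.8 in NKT).

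The highest sites of all are given next. Behind the one near Sag came sites 13.8 kb from Spats1 (3102 and 1455), inside Cog3, a Golgi trafficking gene (3100 and 1912), inside Metap1d (3100 and 1679) and inside the T cell receptor beta locus Tcrb (3100 and 854.8). The value of exactly 3100 occurred 4 times among PLZF-transgenic peaks outside the excluded sequences, and these sites have no order among themselves. On chromosome 13 the noncoding gene Gm40841 held a site of 2605 and 2031. On chromosome 11 a pair beside each other inside Mrpl58, a mitochondrial ribosome gene, scored 1016 and 2112 (490.5 and 1268). Dad1, a glycosylation enzyme gene whose 3′ side faces the T cell receptor alpha locus, had sites 1.97 kb away (chr14:54233086-54233954, 1503 and 1032) and 7.75 kb away (chr14:54227010-54228452, 1482 and 721.1). The interval between that locus and Dad1 is known to hold the Tcra enhancer, and whether either site covers it was not examined. Lag3, an inhibitory receptor gene next to Cd4, had sites of 1540.3 and 293.8 (793.8 and 129.1). Further high sites were inside Xrra1 (1630.3 and 854.8), inside Scml4 (1468 and 760.1), inside Clec16a (1391 and 488.3), 55.7 kb from Mrpl46 (1379.8 and 887.6), inside the noncoding gene 1600002D24Rik (1349 and 346.5), 1.54 kb from A930007A09Rik (1329 and 525.3), 18.7 kb from B3gnt2 (1311 and 747.3) and inside Cuedc1 (1280.0 and 922.9).

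Some strong sites were far from any protein-coding gene. A site on chromosome 10 (37625701 to 37626439, 608.2 and 383.7) lay 487 kb from Marcks, and one on chromosome 18 (81399790 to 81400868, 860.0 and 444.8) lay 413 kb from Sall3. Inside the noncoding gene 2610307P16Rik on chromosome 13 were sites of 677.0 and 199.3, 397 kb from Sox4, and of 1791 and 1389, 361 kb from Prl5a1. Sites 335 kb from Satb1, a chromatin organiser gene of thymocytes (373.8 and 77.87), 464 kb from Tox, a factor of T cell development (204.4 and 121.9), and 327 kb from Runx1 (288.6 and 119.6) were also among the 10 farthest. The single farthest, 1051 kb from Adam6a, lay at Ighv1-10 in the immunoglobulin heavy chain locus (321.8 and 60.34), and a pair lay within Tcra, 457 and 441 kb from Dad1 (243.6 and 226.0, with 68.53 and 121.1).

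Transgene DNA can give peaks at the places its sequence came from, and 11 of the 1055 sites fell in or within 5 kb of Cd4, Cd2, Zbtb16, Tcra or Tcrb, loci that such transgenes may carry. The Cd4 site was 9460 bp wide, and every other strong common site was at most 2312 bp wide, the width of the site inside Tcrb. Zbtb16 had 3 sites, of 572.3, 231.5 and 227.1 (462.8, 175.8 and 126.8), the first 1469 bp wide. The sources used here do not say what the transgenes contain, so transgene DNA and binding cannot be told apart at these 11 sites. Without them 21.8% of sites were near a boundary, in place of 22.1%. No site fell in the presumed repeat-rich regions at Sfi1, AY036118 and on chromosome 2.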

How the data were processed

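Streptavidin ChIP peaks of 2 libraries were used, 1 per group. Bowtie, Picard and HOMER are named with build mm10, per the submitters' processing notes. Versions, the control for peak calling and any pooling: not given in the sources used here. The deposited lists hold chromosome, start, end, a MACS peak name and a score that the authors did not define; no value lay below 50.03 (PLZF-transgenic) or 50.02 (NKT), and depth is unknown. Starts were raised by 1 base. Gene spans, start-site windows and miRNA sequences came from RefSeq tables of GRCm38.p6, the assembly of mm10. Of 556 listed symbols, 553 matched. Overlap was at least 1 bp. Location used peak midpoints, a 1 kb boundary window and a 100 kb limit for the nearest gene. Intervals are exact (Clopper-Pearson) at 95% and cover counting error only. No group had replicates, so no test was made. The overlap script was tested on simulated data. Python 3.11.15, pandas 2.3.3 and scipy 1.17.1 were used.

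The members and lists were chosen with earlier results of these data known. Regions named by rule were the 25 highest scores, the 5 on each side of the threshold, the 5 lowest and highest pairs, genes with 4 or more sites, up to 8 genes per list, the 10 highest at a start window and the 10 farthest from a gene. A few genes picked in this way are not reported here. The share near start sites, the spacing groups and the miRNA and lncRNA counts were added after seeing the data. Alternatives were other overlaps, score thresholds, windows, gene sets and distance limits.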

Additional observations from a re-analysis of the deposited data

How the results depend on the processing

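Reciprocal overlap of 50% left 666 of the 1055 sites at 538 of the 809 genes, with 21.3% near a boundary. A score threshold of 300 left 619 sites at 497 genes, with median widths of 766 bp (PLZF-transgenic) and 462 bp (NKT) in place of 669 and 388 bp. With that threshold the genes with a site numbered 5 for survival and TNF signalling, 1 for PLZF partners and chromatin, 1 for ribosomal proteins and 0 for myeloid markers, while 2.30% of all genes had one and T cell receptor signalling genes kept 20 of 53. A limit of 10 kb to the nearest gene left 4 cytokine and effector genes. With a 2.5 kb boundary window 33.0% of sites lay near a boundary, 45.4% inside genes and 21.6% between them, and with protein-coding genes only 13.9%, 45.5% and 40.6%. Summing all overlapping NKT peaks gave a median NKT score of 49.5% of the PLZF-transgenic one, against 46.2%. Start sites of protein-coding genes only lay within 1 kb of 10.2% of sites, and any start within 2.5 kb of 19.4%; both were added after seeing the data. The cause of these changes was not tested. Scores and counts have no replicate error, and depth, which is unknown, limits every comparison of scores between the lists. No paired analysis was possible because each group has 1 library.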

Other observations

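A few groups of strong common sites lay away from genes of the lists and are given as values only. On chromosome 10, 5 sites over 65.0 kb (118057368 to 118122388) were given to Mdm1, with PLZF-transgenic scores of 289.3 to 615.3 and NKT scores of 116.2 to 326.4, and all were 19.5 to 83.8 kb outside that gene. On chromosome 19, 4 sites over 20.1 kb (53423649 to 53443748) were given to Smndc1, 33.4 to 52.7 kb away, and 3 of them lay in or within 1 kb of the noncoding gene Mirt1; the site of 278.9 scored 271.8 in the NKT list. On chromosome 16, 4 sites over 33.8 kb (95866844 to 95900672) had the noncoding gene 1600002D24Rik as their nearest gene of any kind, with scores of 328.4 to 1349 and NKT scores of 83.27 to 346.5. At Jakmip1, 4 sites inside the gene scored 460.0, 557.1, 490.2 and 218.2, with 295.4, 234.6, 263.4 and 94.64 in the NKT list.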
